A study of Drosophila melanogaster with 3 samples.

Results

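The genes described here encode the vacuolar proton pump (V-ATPase) of Drosophila melanogaster. They are the 33 protein-coding genes, of 13945 on the main chromosome arms, whose symbol starts with Vha in the dm6 annotation. Chromatin was taken from whole adult females, of an age the labels give as unknown, of 1 transgenic line whose Traffic jam protein (tj) carries eGFP at its C terminus. DNA bound by the fusion was recovered with an antibody to GFP and sequenced. The samples were 3 biological replicates in 1 group, with no second genotype, tissue or treatment to compare. Because whole flies were used, the cells in which a site was occupied are not known, and occupancy in few cells cannot be told apart from weak occupancy in many.

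The pump has a cytosolic sector, V1, that hydrolyses ATP, and a membrane sector, V0, that carries protons. It acidifies endosomes, lysosomes and synaptic vesicles, and in flies it also energises ion transport across the Malpighian tubule and the midgut. In Drosophila follicle cells, loss of pump subunits is known to impair endosome acidification and Notch signalling. Most subunits have several genes in the fly, usually 1 that is used in most tissues and others known from fewer. Mitf, a basic helix-loop-helix factor, is known to activate pump genes in flies through E-box type sites. Traffic jam is a large Maf factor, a class whose usual sites contain the core TGCTGAC.

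Sequences are given for 5 sites whose motifs are counted among the results. They are from the Release 6 assembly of NCBI, read 5′ to 3′ on the strand of the gene, with motif letters in capitals (TGCTGAC, the E-box CACGTG, TATCGATA, and TGACNNNGC or its reverse complement). The first is the window of 201 bases around the strongest summit of the whole gene family, in an intron of Vha100-2 (chr3R:18395794-18395994, minus strand). Its TGCTGAC lies 1 bp from the summit and overlaps a match to TGACNNNGC.
Vha100-2, strongest summit: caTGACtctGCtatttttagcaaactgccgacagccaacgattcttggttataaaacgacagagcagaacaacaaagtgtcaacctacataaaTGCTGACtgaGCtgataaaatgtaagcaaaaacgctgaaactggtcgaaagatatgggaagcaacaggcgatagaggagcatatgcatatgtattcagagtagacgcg
Another intronic summit of the same gene holds TGCTGAC with CACGTG (chr3R:18398741-18398941, minus strand), which shows both motif classes in 1 window.
Vha100-2, summit near the upstream start: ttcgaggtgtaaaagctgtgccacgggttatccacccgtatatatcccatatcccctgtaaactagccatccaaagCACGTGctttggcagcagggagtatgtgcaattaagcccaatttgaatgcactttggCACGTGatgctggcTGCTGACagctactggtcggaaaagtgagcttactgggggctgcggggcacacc
At VhaSFD the stretch just before the start (chr2L:16727827-16727893, minus strand) holds TATCGATA, the DNA replication-related element of many widely expressed fly promoters.
VhaSFD, promoter: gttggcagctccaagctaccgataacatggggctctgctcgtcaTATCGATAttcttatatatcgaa
At Vha68-2 the intronic stretch beside the summit (chr2L:12974747-12974871, plus strand) holds TGACNNNGC, read on the opposite strand.
Vha68-2, intronic stretch: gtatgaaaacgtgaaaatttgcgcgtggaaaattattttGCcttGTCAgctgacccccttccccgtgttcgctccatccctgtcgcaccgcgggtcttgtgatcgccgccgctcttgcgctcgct
At Vha55, a stretch of 30 bases at the start region (chr3R:12627756-12627785, minus strand) holds the E-box.
Vha55, E-box: gtcatgtgacggCACGTGacgtcacagcag

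Sites were taken from the reproducible list of 10688 peak summits (from an irreproducible discovery rate analysis, IDR), and a gene counted as bound if a summit lay inside it or at most 1000 bp from a transcription start site (TSS). The strongest summit of a gene is that with the highest signal in the pooled replicates. Strength is given as relative signal, the peak caller's enrichment value in a replicate divided by that replicate's median at reproducible summits, so that 1 is a typical site. Those medians were 113.6, 242.1 and 160.6 in replicates 1, 2 and 3. Neighbouring summits within 200 bp of the same replicate summit share its value. The read depth is unknown. With 1 group there was no contrast to test, and genes are not replicates, so shares are set beside the same share over all coding genes.

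Traffic jam sites lay at the pump genes in a pattern that followed the paralogs. Of the 33 genes, 16 (48.5%) were bound, against 38.6% of all coding genes. All 14 widely used isoforms were bound, and 2 of the 19 other paralogs (10.5%) were. The V1 sector had 9 of 13 genes bound (69.2%), the V0 sector 6 of 18 (33.3%) and the accessory proteins 1 of 2. Within each sector the split between isoforms was the same in kind. In V1, 8 of 8 widely used and 1 of 5 other genes were bound, and in V0 the counts were 5 of 5 and 1 of 13. V0 has more of the other paralogs, and in this list the widely used genes were all bound in both sectors. Which isoforms are widely used was taken from background knowledge of fly expression and was not measured here.

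The replicates gave the same order of shares. When the strongest 10688 summits of 1 replicate were used alone, the widely used genes bound numbered 14, 12 and 13 in replicates 1, 2 and 3, and the other paralogs 2, 1 and 2. The 8 widely used V1 genes were bound in each replicate, while of the 5 widely used V0 genes 5, 3 and 4 were. The matching shares of all coding genes were 39.0%, 36.7% and 38.0%. Counting only summits within 1000 bp of a TSS left every count over the Vha genes the same, while 36.4% of all coding genes were then bound. Counting only summits that lay nearest to a gene's own TSS left 13 widely used genes (8 of 8 in V1 and 4 of 5 in V0) and 1 other paralog, against 29.2% of coding genes. VhaM9.7-b and Vha16-5 were the members lost. Vha14-1 stayed only through its weaker summit, with a mean relative signal of 0.44 and place 10254 in the reproducible list. The isoform classes differed in more than use. Their median length was 2907 bp for widely used genes and 1371 bp for the others, and more than 1 TSS was annotated at 35.7% and 15.8%. The part of gene length, TSS number, expression or open chromatin in the split was not tested.

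**Figure D1:**
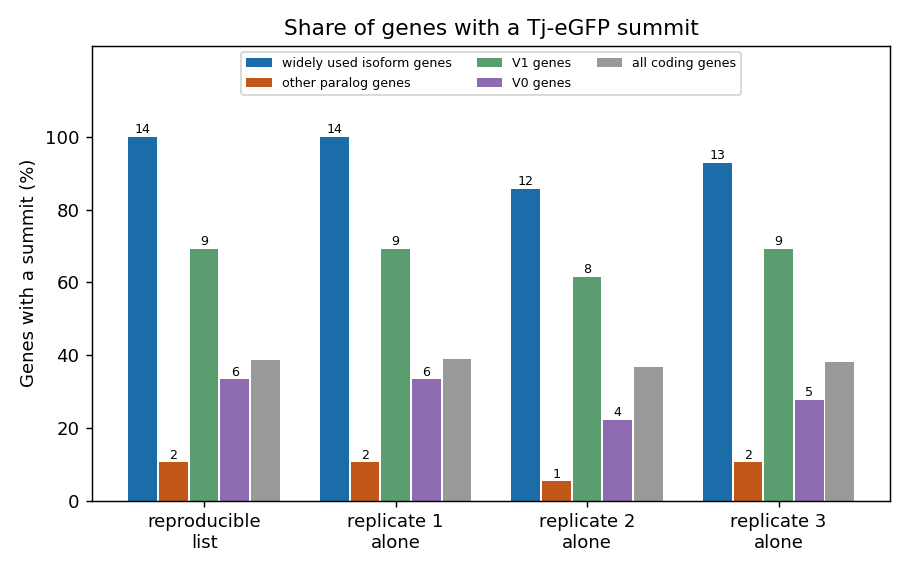
Share of genes with a Tj-eGFP summit (%, vertical axis) in the reproducible list and in the strongest 10688 summits of each replicate alone; numbers above bars are bound genes. The bars of widely used isoforms (12 to 14 of 14) stand above that of all coding genes (36.7% to 39.0%) in each list, and those of the other paralogs (1 or 2 of 19) below it.

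In the V1 sector, the catalytic A subunit has 3 genes on chromosome arm 2L. Vha68-2, the widely used one, had 2 intronic summits near its starts. The relative signal of the stronger was 1.76, 2.05 and 2.26 in replicates 1, 2 and 3 (2.02 ± 0.25, SD, n = 3; peak 2L, 12974060 to 12975173). Every replicate lay above the typical site. Vha68-1 had 1 summit, 132 bp upstream of its TSS, in the interval before the mTor gene, which the same summit also marks. Its relative signal was 0.98 in replicate 1 and 0.75 in replicate 3, and replicate 2 had no peak there. Vha55 encodes the B subunit, which completes the catalytic ring and has a single gene. Its summit, in a 5′ UTR, was weak at 0.61, 0.57 and 0.42 (0.54 ± 0.10; 3R, 12627495 to 12627998).

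The stalk subunits of V1 differed more in strength. Vha36-1 encodes subunit D of the central stalk, and its summit lay 6 bp from the TSS (2R, 15541218 to 15541660). The relative signal there was 2.94, 2.43 and 3.65 (3.00 ± 0.61, SD, n = 3), which was the highest of V1 in every replicate. Vha14-1, subunit F of the same stalk, had 2 summits. The stronger (1.30, 0.97 and 0.85; 1.04 ± 0.23) lay 914 bp from its TSS and nearest to the start of Gmppa, an enzyme gene of sugar nucleotide metabolism, and the summit at its own promoter was at 0.44 ± 0.07. Vha13, subunit G of the peripheral stalks, had its strongest summit in the coding sequence 154 bp from the TSS, with 0.84, 1.48 and 1.60 (1.31 ± 0.41). Replicate 1 lay below the typical site there and the other two above it. Vha26, subunit E, had 3 weak summits. That with the highest signal in the pooled replicates was in the 3′ UTR, at 0.54, 0.85 and 0.70 (0.70 ± 0.15; 3R, 5594973 to 5595476). The promoter summit 109 bp from the TSS, at 0.68, 0.23 and 0.73 (0.55 ± 0.28), was above it in replicates 1 and 3 and below it in replicate 2, so which of them is stronger was not settled by the replicates.

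The remaining V1 subunits connect or regulate the sectors. Vha44 encodes subunit C, which leaves when the pump disassembles. Its single summit was 5 bp from a TSS, with 0.94, 0.74 and 0.62 (0.77 ± 0.16; 2R, 16336587 to 16336819), below the typical site in all 3 replicates. VhaSFD, the regulatory subunit H, had 1 summit, 33 bp into its 5′ UTR, with 1.12, 1.49 and 1.30 (1.30 ± 0.19; 2L, 16727671 to 16727929), above it in all 3. The V1 paralogs without a reproducible summit were Vha68-3, Vha36-2, Vha36-3 and Vha14-2.

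In the V0 sector, the widely used a subunit gene held the strongest site of the family, and the widely used a and c subunit genes held the most sites. Subunit a anchors V1 and forms the path by which protons enter and leave the ring. The strongest summit of Vha100-2 had a relative signal of 10.1, 10.4 and 13.0 in replicates 1, 2 and 3 (11.1 ± 1.59, SD, n = 3; 3R, 18395440 to 18396354). It was the 19th strongest of the reproducible list, and its peak stood at place 28, 20 and 21 among the 30000 of the replicates' own lists. It lay in an intron, 1034 bp downstream of the inner of the gene's 2 starts. The value was 3.43, 4.28 and 3.56 times that of Vha36-1, the next member, in the same replicates.

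Vha100-2 had 8 summits in all, 7 of them intronic, and the 7 besides the strongest had mean relative signals of 0.53 to 1.63. Of the 8, 3 lay nearest to the start of Vti1b, a SNARE gene on the opposite strand that overlaps the upstream end of Vha100-2 (3R, 18396995 to 18400339). The strongest lay 1101 bp from that start, little farther than from the start of Vha100-2 itself. By the same rule, 5 of the 8 summits, not including the strongest, were also assigned to Vti1b. The neighbouring gene Vha100-4, 517 bp downstream of Vha100-2, had none of its own.

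Vha16-1 encodes the proteolipid c, whose ring carries the protons. It also held 8 summits, 7 of them intronic, with mean relative signals between 0.81 and 2.48. The strongest in the pooled replicates lay 1381 bp from the upstream of its 2 starts and 675 bp from the inner one, with 2.11, 2.41 and 2.92 (2.48 ± 0.41; 2R, 6631444 to 6631971), above the typical site in all replicates. An intronic summit 4590 bp from the upstream start had 2.26, 2.51 and 1.59 (2.12 ± 0.47), and one 110 bp from that start 1.72, 1.90 and 2.49 (2.04 ± 0.40). The strongest was above the summit at 110 bp in every replicate. It was below the summit at 4590 bp in replicates 1 and 2 and above it in replicate 3. Together Vha100-2 and Vha16-1 accounted for 16 of the 37 distinct Vha summits and 14 of the 17 intronic ones.

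**Figure D2:**
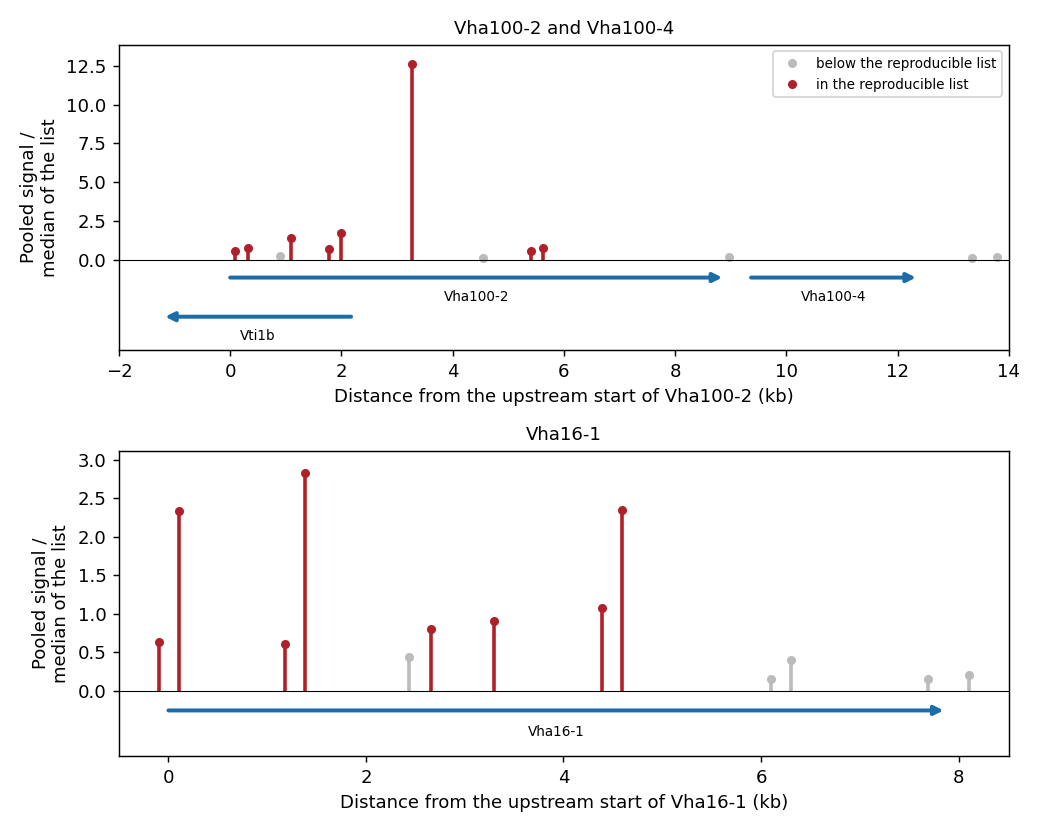
Summits along Vha100-2 with Vha100-4 and Vti1b (top) and along Vha16-1 (bottom); the horizontal axis is distance from the gene's upstream start (kb), the vertical axis the signal of the pooled replicates divided by its median over the reproducible list, and arrows are genes. Each gene has 8 reproducible summits (red); the intronic one of Vha100-2 stands far above the others, while several of Vha16-1 are of like height, and Vha100-4 has only peaks below the list (grey) near it.

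The other V0 sites were weaker or lay nearer to another gene. VhaPPA1-1 encodes the larger proteolipid c″, and its summit 46 bp into the 5′ UTR had 0.81, 0.35 and 0.70 (0.62 ± 0.24; 3R, 14903763 to 14904266), with replicate 2 lowest. VhaAC39-1, subunit d, which links the proteolipid ring to the central stalk, had 0.46, 0.41 and 0.41 (0.43 ± 0.03; X, 3880610 to 3881113). Its place in the reproducible list was 10571, near the end. VhaM9.7-b, the small subunit e, shared a promoter region with COX8, a cytochrome oxidase subunit gene to which the summit was nearest, with 0.81, 0.66 and 0.44 (0.64 ± 0.19; 3L, 21539319 to 21539822). Vha16-5 was the only bound V0 paralog outside the widely used class, with 1.88, 1.53 and 1.64 (1.68 ± 0.18; 2L, 10737199 to 10737492). Both of its summits lay outside the gene and nearest to the start of CG12299, 23 and 222 bp away.

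Among accessory proteins, VhaAC45, a V0-associated glycoprotein needed for pump assembly and sorting, had 1 summit in its 5′ UTR, with 0.62, 0.59 and 0.53 (0.58 ± 0.05; 2R, 9207382 to 9207885). Every replicate was below the typical site. Its paralog VhaAC45RP had none.

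**Figure D3:**
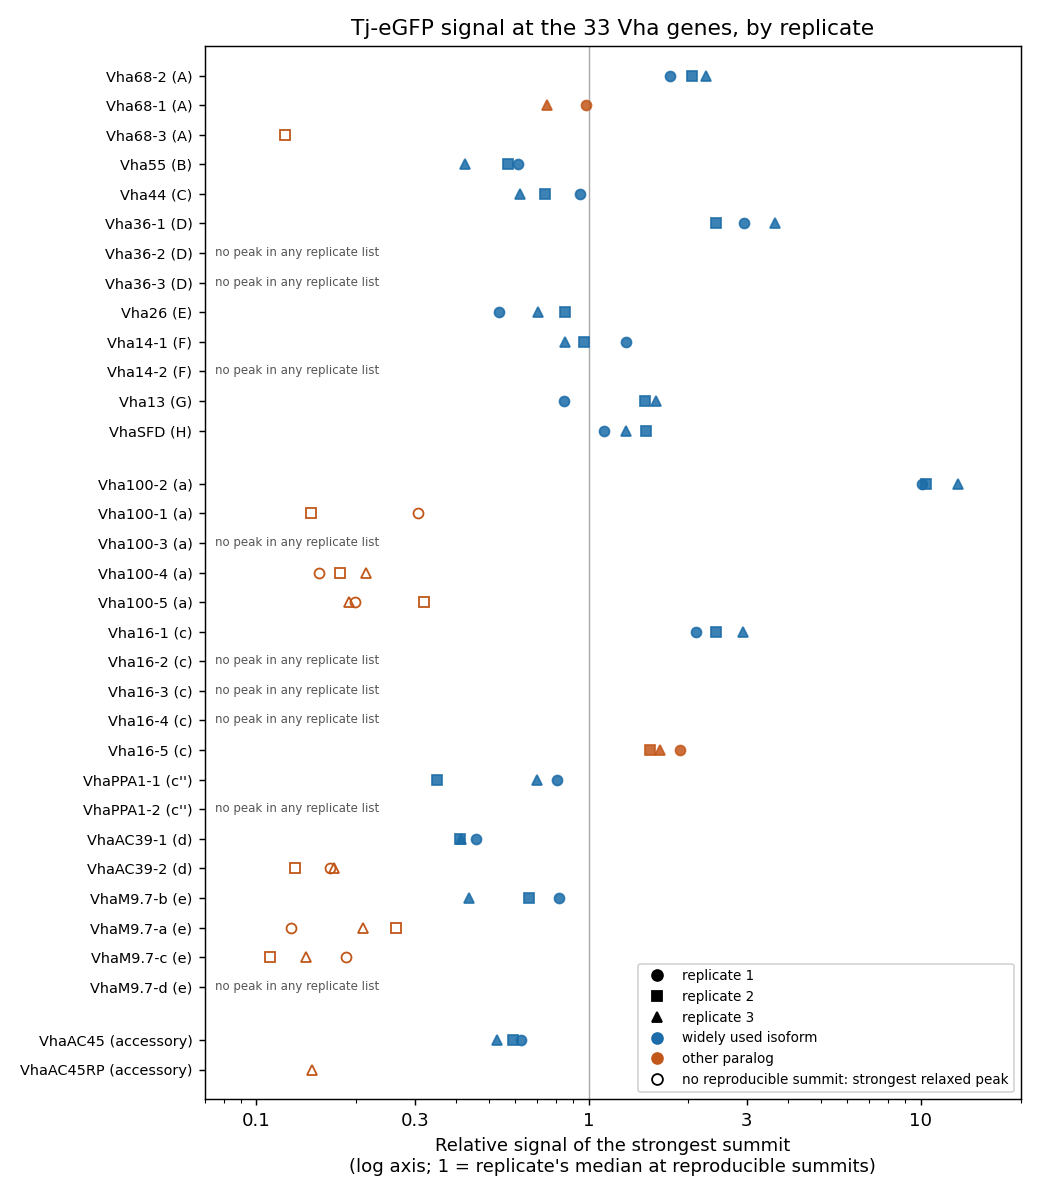
Relative signal (log axis; 1 is the replicate's median at reproducible summits) of the strongest summit of each of the 33 Vha genes, with subunits in brackets and replicates 1 to 3 as circles, squares and triangles. Filled symbols, for the 16 bound genes, lie at 0.35 or above and open symbols, the strongest relaxed peak of unbound genes, at 0.32 or below; Vha100-2 lies apart above 10.

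In order of strength, Vha100-2 stood apart and the other bound members formed a graded series. The gap of 8.14 between Vha100-2 and Vha36-1 exceeded the SD of both. Of the 15 gaps between neighbours in the order, 5 exceeded both SDs and 10 did not. The 5 were those below Vha100-2, Vha16-1, Vha68-2, VhaSFD and Vha55. The SDs take no account of sites being measured in the same replicates. All 3 replicates kept the order of 6 of the 15 pairs. The pairs below Vha36-1, Vha16-5 and VhaAC45 were among these 6, though their gaps did not exceed both SDs. The pairs below Vha68-2 and VhaSFD exceeded both SDs but kept their order in only 2 replicates. The median relative signal of the strongest summit was 0.95 over the 16 bound genes (0.96, 0.97 and 0.80 by replicate), against 1.17 over the 5381 bound coding genes. It was 1.04 for the 9 bound V1 genes and 1.16 for the 6 bound V0 genes. Among the widely used genes the order was the reverse, with 1.17 for the 8 of V1 and 0.64 for the 5 of V0, so the order of the sectors depended on the genes counted. In all, 7 of the 14 widely used genes lay above 1, where 56.9% of bound coding genes did. More than 1 summit was assigned to 8 of the 16 genes and to 47.4% of bound coding genes.

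**Figure D4:**
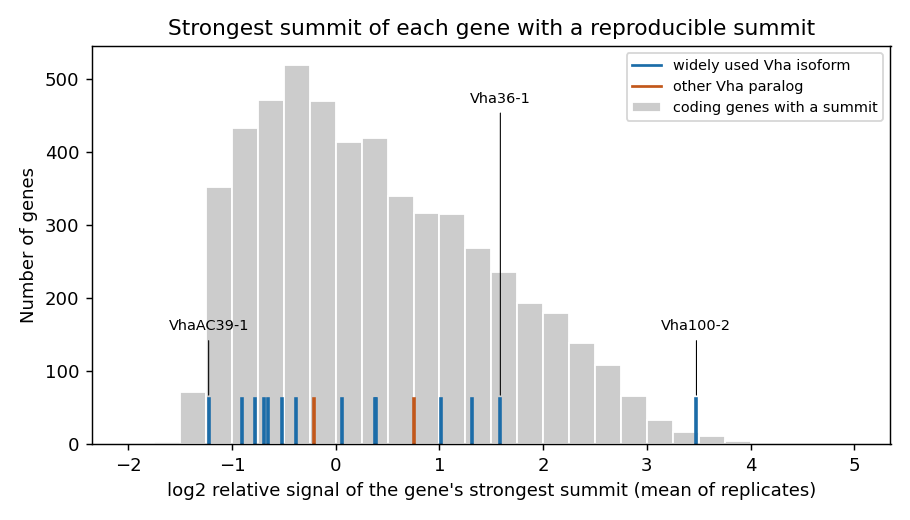
Distribution of the log2 relative signal (mean of replicates, horizontal axis) of the strongest summit over the 5381 bound coding genes (grey bars, number of genes) with the 16 bound Vha genes as coloured ticks. Most Vha ticks fall within the body of the distribution, Vha100-2 falls in its upper tail and VhaAC39-1 at its lower edge.

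In position, the 37 distinct summits fell in 32 listed peak regions. Some of these regions overlap, so they are not all separate sites. Of the 37 summits, 24 lay within 500 bp of a TSS of the gene. Introns held 17, 5′ UTRs 6, coding sequence 3 and the 3′ UTR 1, while 10 lay outside the gene. Of the 16 bound genes, 14 had a summit within 200 bp of one of their own starts. Another gene's start was nearer for 7 of the 37 summits. The rule for a bound gene counts summits near a start, so closeness to starts is in part built in. Of all 10688 reproducible summits, 5846 lay within 1000 bp of a coding TSS. Matching shares by position over all bound genes are not given here. In all, 28 of the 37 were among the strongest 10688 of each replicate, as were 8177 of all 10688 reproducible summits.

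The 17 genes without a reproducible summit were looked up in the relaxed lists, which include background. The pooled list had a peak at 8 of them, against 37.2% of the 8564 coding genes without a reproducible summit. Replicates 1, 2 and 3 had one at 6, 7 and 6 of the 17, against 37.3%, 34.1% and 40.6% of those coding genes. The 5 genes with a peak in all 3 replicates were Vha100-4, Vha100-5, VhaAC39-2, VhaM9.7-a and VhaM9.7-c, and 24.6% of those coding genes had one in all 3. The counts at the Vha genes were thus near the background. The other 3 were Vha68-3, Vha100-1 and VhaAC45RP. Vha100-1 is the a subunit known from synaptic vesicles of fly neurons, and its peak had 0.31 in replicate 1 and 0.15 in replicate 2, with none in replicate 3. The 19 replicate values at these genes ran from 0.11 to 0.32, and the lowest replicate value at the strongest summit of a bound member was 0.35. The reproducible list keeps the stronger peaks, so this gap is in part built in. No list had a peak at Vha36-2, Vha36-3, Vha14-2, Vha16-2, Vha16-3, Vha16-4, Vha100-3, VhaPPA1-2 or VhaM9.7-d. Over coding genes without a reproducible summit, 49.1% had none in any list.

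Paralogs that lie side by side showed the split over short distances. Vha68-2, with 2 summits, ends 178 bp before Vha68-3, with none, and Vha68-1 lies 19476 bp farther with 1. VhaPPA1-1 and VhaPPA1-2 are 2052 bp apart with RpS5b between them, the ovary-enriched paralog of a ribosomal protein gene. The strong summit there (7.62, 7.77 and 9.17; 8.19 ± 0.86; 3R, 14901471 to 14902386) was nearest to the RpS5b start. It lay 1717 bp from the TSS of VhaPPA1-2 and so was not assigned to it, but a window of 2000 bp assigned it. It lay 336 bp beyond the end of VhaPPA1-1. Vha16-3 and Vha16-2, 985 bp apart, both had none.

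**Figure D5:**
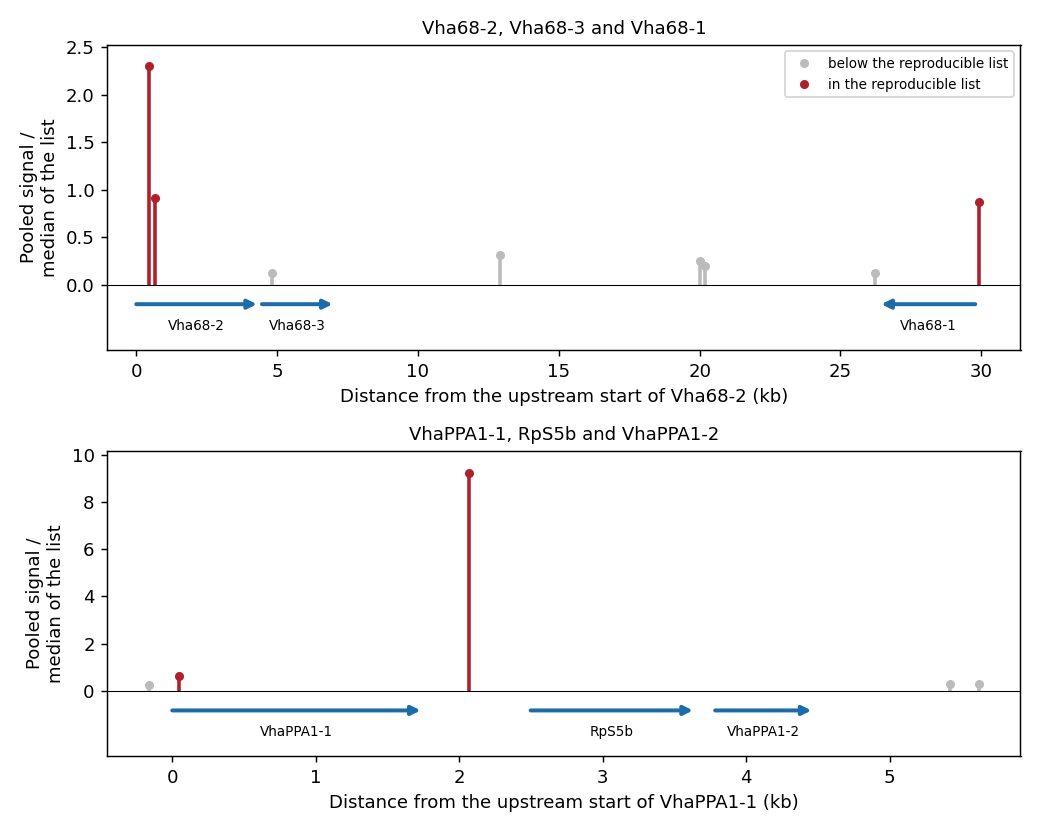
Summits along the Vha68 genes (top) and along VhaPPA1-1, RpS5b and VhaPPA1-2 (bottom); axes and colours as in the plot of Vha100-2 and Vha16-1. Red summits lie near the starts of Vha68-2, Vha68-1 and VhaPPA1-1 and a tall one upstream of RpS5b, and none lies within Vha68-3 or VhaPPA1-2.

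Short motifs were searched on both strands within 100 bp of each summit. The Maf core TGCTGAC was found at 3 of the 37 Vha summits, against 6.84% of all reproducible summits, and all 3 were in Vha100-2, at 1, 38 and 47 bp from their summits. TGACNNNGC, the core of the antioxidant response element, which can overlap TGCTGAC, was found at 4, in Vha100-2, Vha26, Vha44 and Vha68-2, against 9.16%. These shares (8.11% and 10.8%) were near their background over all reproducible summits. Of the summits within 1000 bp of a coding TSS, 5.10% held TGCTGAC and 7.51% held TGACNNNGC. The match in Vha26 spanned the summit of the intron, and the match in Vha68-2 was 15 bp from its summit. TATCGATA was found at 1, 49 bp from the summit of VhaSFD, against 2.49%.

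The E-box CACGTG was found at 4 Vha summits (10.8%), in Vha100-2, Vha16-1, Vha44 and Vha55, against 2.67% of all reproducible summits and 2.70% of those within 1000 bp of a coding TSS. The extended form TCACGTGA, which contains CACGTG, was found at 2, in Vha16-1 and Vha44, against 0.215% of all. It lay 11 bp from the Vha16-1 summit and 36 bp from that of Vha44. Of the 23 reproducible summits with TCACGTGA, these were 2. In the promoter windows, from 250 bp before to 50 bp after the upstream start, TCACGTGA occurred at Vha44 alone of the 33 genes and at 24 of all coding genes. CACGTG occurred in these windows at 3 of the 33 (9.09%), against 4.20% of all coding genes. They were Vha44 and the unbound paralogs VhaM9.7-d and VhaAC45RP. A match describes the letters in a window and not a site in use.

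Genes that work with the pump were bound in varying measure. Of 12 genes of pump regulation and assembly, 6 were bound, with a median strongest signal of 0.97, where 38.6% of all coding genes were bound with a median of 1.17. For 3 of the 12 a summit was nearest their own TSS, where 29.2% of all coding genes had such a summit. Lamtor3, of the Ragulator complex that ties the pump to mTor signalling, had the strongest at 2.59, 2.04 and 2.13 (2.25 ± 0.29, SD, n = 3). CG5969 (1.95 ± 0.31) and Rbcn-3B (1.06 ± 0.15), which encodes a Rabconnectin that aids pump assembly, had summits nearest to other genes, and that of mTor was the summit of Vha68-1. Mitf itself was unbound, as were RagA-B, raptor, Lamtor1, Lamtor2 and Lamtor4. Of 20 lysosome genes, 13 were bound (65.0%), with a median strongest signal of 1.54. They were led by the protease gene CtsB (6.66 ± 1.33), the sterol carrier gene Npc2a (5.86 ± 0.61), the saposin gene Sap-r (4.59 ± 0.50) and the protease gene CtsL1 (4.49 ± 0.53). These 4 lysosome genes exceeded every Vha gene besides Vha100-2 in mean signal. Of 12 ion exchangers and channels that work beside the pump in epithelia, 6 were bound with a median of 1.72, led by the cotransporter gene Ncc69 (2.23 ± 0.41), the exchanger gene Nhe2 (2.18 ± 0.10), and the chloride channel genes ClC-a (1.94 ± 0.29) and ClC-c (1.50 ± 0.57). The ClC-c summit lay outside the gene and nearest to CG5235.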

How the data were processed

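The deposited files used were peak lists on dm6 (1 per replicate, 1 from pooled replicates and 1 reproducible list), and per the files' accompanying descriptions they derive from the replicates' alignments and a control alignment. The signal of each peak is the value the authors' peak caller gave it, with no stated unit. Not given in the sources used here are the aligner, the caller and the cutoff of the IDR analysis. All 10688 summits of the reproducible list were the strongest of the pooled list. Lists on dm3 were not used. Untagged flies were not analysed here.

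Genes came from Ensembl release 115 (BDGP 6.54) and sequence from NCBI Release 6; no protein sequences were used. Summits were matched to replicate peaks within 200 bp, and to genes within 1000 bp. Motifs were counted in windows of 201 bases. Values are means ± SD over 3 replicates, or 2 for Vha68-1. The members and lists were chosen with earlier results of these data known. The widely used class and subunit classes come from background knowledge, not from these files. Every Vha gene was named, and of each other list the count bound, up to 4 bound members with the strongest summit, and the unbound members where few (those of the pump regulation list were named after their values were seen). All symbols of the 3 lists matched. VhaM8.9 is listed under another symbol in the annotation and so is no member. The assignment, the relative signal and the search for TGCTGAC were tested on simulated data. The simulated windows held only A and T besides that motif, and the other motifs were not tested. The alternatives tried were the stronger part of the list, other peak sets, windows and assignments, other match distances and scaling, leaving out each replicate, and, added after the data were seen, single replicate lists. Calculations used Python 3.11.15, NumPy 2.4.6, pandas 2.3.3 and Matplotlib 3.10.9.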

Additional observations from a re-analysis of the deposited data

How the results depend on the processing

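With the stronger 5344 summits of the reproducible list, the bound genes numbered 8 of all Vha genes, 5 of V1, 3 of V0, 7 of the widely used isoforms, 1 of the other paralogs and 3329 of all coding genes, and the median signal was 1.85. The other paralogs bound numbered 1 when the nearest TSS had to be the gene's own, with summits matched in all 3 replicates and with replicate 2 alone, and 1 to 2 when a replicate was left out. The median signal of bound Vha genes was 0.82 with 500 bp or with own nearest TSS, and 0.84 with matching within 50 bp. It was 3.34 when divided by the median over all relaxed peaks. With summits matched in all 3 replicates it was 1.30, and it was 1.14 to 1.47 when a replicate was left out. Medians over all bound coding genes under these settings are not given here. These values are therefore not to be set against the coding-gene median of the main setting. Leaving out a replicate here is a stricter filter on a list made from all 3, not a new peak call, and 12 to 14 Vha genes, 11 to 12 widely used genes and 33.8% to 34.6% of all coding genes stayed bound. VhaAC39-1 was lost in each case, VhaPPA1-1 and Vha68-1 (which has no peak in replicate 2) without replicate 1 or 3, and Vha55 without replicate 1 or 2. The other counts of genes stayed within 1.5 times. The stronger part of the list also held 1 Vha summit with CACGTG, 1 with TCACGTGA and 2 with TGACNNNGC; within 50 bp none held TATCGATA, and within 200 bp 7 held TGACNNNGC. The remaining 15 motif counts stayed within 1.5 times. Shares over all reproducible summits under these settings are not given here. These counts therefore do not show whether a motif stays above its background. Of 96 values of single genes under other settings, 79 moved by less than the replicate SD, but most settings could give only 1 outcome. All 16 moved by the rescaling itself. The 16 values for each replicate left out could not move by the SD, because dropping 1 value shifts a mean by less than that. Only the match distances could go either way. All 16 values stayed within the SD with 100 bp and 15 with 50 bp, where that of Vha68-1 moved to 0.69. The depth of the libraries is unknown, so weak sites cannot be given a counting error. With only 1 group there were no samples to pair between groups, and no test was made. Sites were compared with each other within the same replicates.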

Other observations

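ATP6AP2, the accessory protein known in flies as VhaM8.9, falls outside the family only by its present symbol. It had 1 summit nearest its own start, with a relative signal of 0.79, 0.63 and 0.62 in replicates 1, 2 and 3 (0.68 ± 0.09, SD, n = 3; 3R, 9260348 to 9260851), below the typical site in each. Counted with the widely used isoforms it would be one more bound member.

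The 23 reproducible summits with TCACGTGA, of which 14 lay within 1000 bp of a coding TSS, had mean relative signals from 0.45 to 5.14. The strongest was nearest to sky (5.14 ± 0.48), a Rab GTPase-activating protein gene of synaptic vesicle traffic, at 8988 bp. Rab5, an early endosome GTPase gene, had one 305 bp from its start (2.57 ± 0.28). The summit of Vha44, 5 bp from a start, was the closest to a start of the 23, and that of Vha16-1 was the sixth strongest. These summits were examined after the motif counts were seen, and no share over them was tested.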
